A study of Mus musculus with 12 samples.

Results

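Large ribosomal subunit protein genes were followed in splenic CD4 and CD8a T cells of stressed and unstressed mice. Members were the rows whose symbol was Rpl with a number, with or without one of the suffixes a, al, l or l1, or was Rplp0, Rplp1 or Rplp2. Of the 3684 genes in the 8 tables, 50 were members. All 50 were listed for CD8a cells (of 2851 genes) and 49 for CD4 cells (of 2999 genes), which did not list Rpl32l. Single-cell libraries of spleen were made with a 3' kit from 12 mice, and the deposited values are the average expression of a gene over the CD4 or the CD8a cells of each mouse. The 4 groups of 3 mice were S100a9-/- mice on the C57Bl6/J strain after repeated social defeat stress, S100a9-/- mice without stress, C57Bl6/J wild-type mice after the same stress, and C57Bl6/J wild-type mice without stress. The stress paradigm ran for 10 days, behaviour was tested for 1 day, and spleens were taken on day 12. S100a9 encodes a subunit of calprotectin, a protein that neutrophils and monocytes make in bulk. The labels name neither the deleted part of S100a9 nor the sex or age of the mice, and each group holds 3 mice.

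The large subunit of the ribosome joins amino acids into protein and is built in the nucleolus from ribosomal RNA and one copy of most of its proteins. Messenger RNAs of ribosomal proteins begin with a run of pyrimidines, the terminal oligopyrimidine motif, through which mTORC1 and LARP1 control their translation and stability. Resting T cells hold few ribosomes and make many more when antigen activates them. Ribosomal protein transcripts are also among the most abundant transcripts of a lymphocyte.

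Near the start sites of some members lies the short pyrimidine run CTTTCC. The 7 windows shown here are from the 15 members that hold these letters within 50 bases of the start, picked after their values were seen to show how far from the start they lie. Rpl18 rose more and Rpl31 less than the member average under stress, and the other 5 were called lower in unstressed knockout CD4 cells. Capitals mark CTTTCC, and each window runs 5' to 3' on the strand that reads as the RNA.
Rpl18: tcgcaggccgctCTTTCCccgcccactccg
Rpl26: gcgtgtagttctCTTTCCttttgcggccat
Rpl31: acggctacgcgaCTTTCCctcccacaaacc
Rpl35: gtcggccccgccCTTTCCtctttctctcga
Rpl35a: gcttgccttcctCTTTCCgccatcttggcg
Rpl36a: tctagcctctctCTTTCCgagctgctag
Rpl38: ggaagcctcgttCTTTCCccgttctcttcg
The sequences are from RefSeq promoters of GRCm38.p6, which matched 37 of the 50 members. The Rpl38 window is chr11:114668568-114668597 on the plus strand, with the letters at base 1 of the transcript as RefSeq places its start, and in Rpl18 they begin at base 4. The letters begin farther in, at base 26 in Rpl26, base 32 in Rpl31 and Rpl35a and base 35 in Rpl36a. In Rpl35 they begin at position -5, before the start, and run across it to base 1. The Rpl31 window is chr1:39367870-39367899 on the plus strand. CTTTCC lay within 50 bases of the start, on the strand that reads as the RNA, in 15 of 37 members (40.5%) and 3 of 24 small subunit genes (12.5%). It did so in 134 of 2591 other genes of the tables (5.17%) and 1468 of 27025 RefSeq genes with a promoter (5.43%). A gene counted if any of its starts matched. On the other strand CTTTCC lay in 1 of 37 members (2.70%) and in 5.13% of all RefSeq genes with a promoter. The letters CCGGAAG, searched on both strands of the 300-base promoter, occurred in 14 of 37 members (37.8%) and 10 of 24 small subunit genes (41.7%). They occurred in 25.0% of the other table genes and 9.93% of all RefSeq genes with a promoter. A CTTTCC and a CCGGAAG can share only bases at their ends. Such matches are letters in a window and say nothing on whether a factor binds. Members with CTTTCC near the start had a median stress effect of 0.49 log2 in wild-type CD4 cells (15 genes), and members without it 0.43 (21 genes).

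The listed genes of a cell type summed to between 7367 and 8270 units per mouse, and the depth behind each value is unknown. Cd4 ran from 1.66 to 3.01 units in the CD4 averages, and Cd8a from 3.38 to 5.27 units in the CD8a averages against 0.0526 to 0.269 in the CD4 averages. Of 9 T cell markers 7 were listed in CD4 and 6 in CD8a cells. S100a9 was close to 0 in every mouse and did not check the labels. In CD4 cells it was 0.0493, 0.0418 and 0.0437 units in unstressed mice labelled knockout, against 0.00449, 0.0167 and 0.0119 in unstressed mice labelled wild type, the reverse of the labels, while stressed knockouts (0.0228 to 0.0294) lay below stressed wild types (0.0595 to 0.111). A 3' tag outside the deleted part would still be counted, so genotypes below are those of the labels. Values are averages over cells, and fewer cells of a kind and less RNA per cell cannot be told apart.

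Rplp1, a protein of the stalk that recruits translation factors, had the highest average over the 12 mice, 78.8 units in CD4 and 97.6 units in CD8a cells. It was followed by Rpl12 (67.4 and 72.6 units), which sits at the base of that stalk, and then by Rpl23 and Rpl32. The lowest were Rpl7l1, a relative of Rpl7 found in ribosome precursors (0.579 and 0.542 units), and Rpl6l (0.276 and 0.309 units). Rpl32l in CD8a cells stood at 0.0208 units. GENCODE M21 annotates Rpl6l and Rpl32l as processed pseudogenes and the other 48 members as protein coding. The 3' kit counts transcript ends, so levels were not divided by length. They do depend on how many reads a gene shares with copies elsewhere. In the last 300 bases of the transcript, 21 members were wholly unique in windows of 98 bases, 25 were partly shared, and Rpl10, Rpl36a, Rpl9 and Rpl6l had no unique window. Levels of these last 4 are uncertain.

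As a group the members were higher after stress in both cell types and both genotypes. Their summed level in CD4 cells was 1435, 1418 and 1366 units in stressed knockouts, against 975, 998 and 999 in unstressed knockouts. In wild-type mice it was 1533, 1533 and 1451 units after stress and 1083, 1093 and 1187 without stress. In no pair did stressed and unstressed mice overlap. CD8a cells held 1622, 1589 and 1571 units in stressed knockouts against 1200, 1189 and 1109 in unstressed knockouts. Wild-type CD8a cells held 1834, 1687 and 1687 units after stress and 1206, 1227 and 1302 without it, again without overlap. Members made up 17.3% ± 0.427 of the listed sum in CD4 cells of stressed knockouts, against 13.4% ± 0.129 in unstressed knockouts, and 18.4% ± 0.503 in stressed wild types against 14.9% ± 0.721 in unstressed wild types (SD, n = 3 each). The ratio of the large to the small subunit sum was slightly higher after stress in all 4 pairs, without overlap. In CD4 cells it was 0.985 to 0.995 in stressed and 0.953 to 0.981 in unstressed knockouts, and 0.987 to 1.03 in stressed and 0.960 to 0.967 in unstressed wild types. In CD8a cells it was 1.002 to 1.009 in stressed and 0.967 to 0.991 in unstressed knockouts, and 1.003 to 1.04 in stressed and 0.989 to 0.998 in unstressed wild types.

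**Figure D1:**
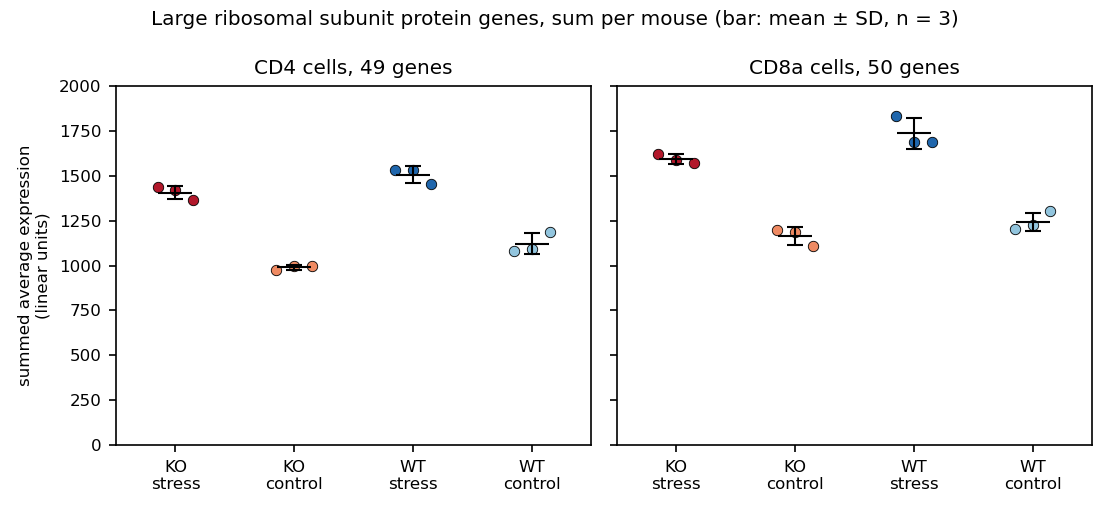
Summed average expression of the listed members per mouse in CD4 (49 genes) and CD8a cells (50 genes), in the authors' linear units. Points are mice, and bars are the mean ± SD over 3 mice. In every pair the 3 stressed mice lie above the 3 unstressed mice of their genotype, such as 1366 to 1435 against 975 to 999 units in knockout CD4 cells.

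Gene by gene, limma with Benjamini-Hochberg adjustment over the listed genes called 46 of 48 members higher after stress in knockout CD4 cells, 0 lower and 2 neither way (19.5% of all 1898 listed genes were called higher and 20.0% lower). In wild-type CD4 cells 44 of 48 rose, 1 fell and 3 were not called, where 31.0% of 2413 genes were called higher and 28.9% lower. CD8a cells had 46 of 49 higher and 2 lower in knockouts, where 17.9% of 2023 genes were called higher and 22.1% lower, and 45 of 49 higher and 1 lower in wild types, where 26.7% of 2108 genes were called higher and 41.5% lower. The median stress effect of members was 0.57 log2 in knockout and 0.47 in wild-type CD4 cells, and 0.49 and 0.50 in CD8a cells. Over all listed genes the medians were 0.13, 0.15, 0.11 and 0.09 log2. The authors chose the listed genes on these same mice by a rule the labels do not give, so the counts describe a chosen set. Centring each mouse on its median gene moved the median of all listed genes in wild-type CD8a cells to 0.29 log2 and the split of all calls to 1142 higher and 854 lower, against 563 and 875 uncentred, while 48 of 49 members were then higher. In wild-type CD4 cells the split of all calls was 1013 and 697 centred, against 748 and 698, with 45 members higher.

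**Figure D2:**
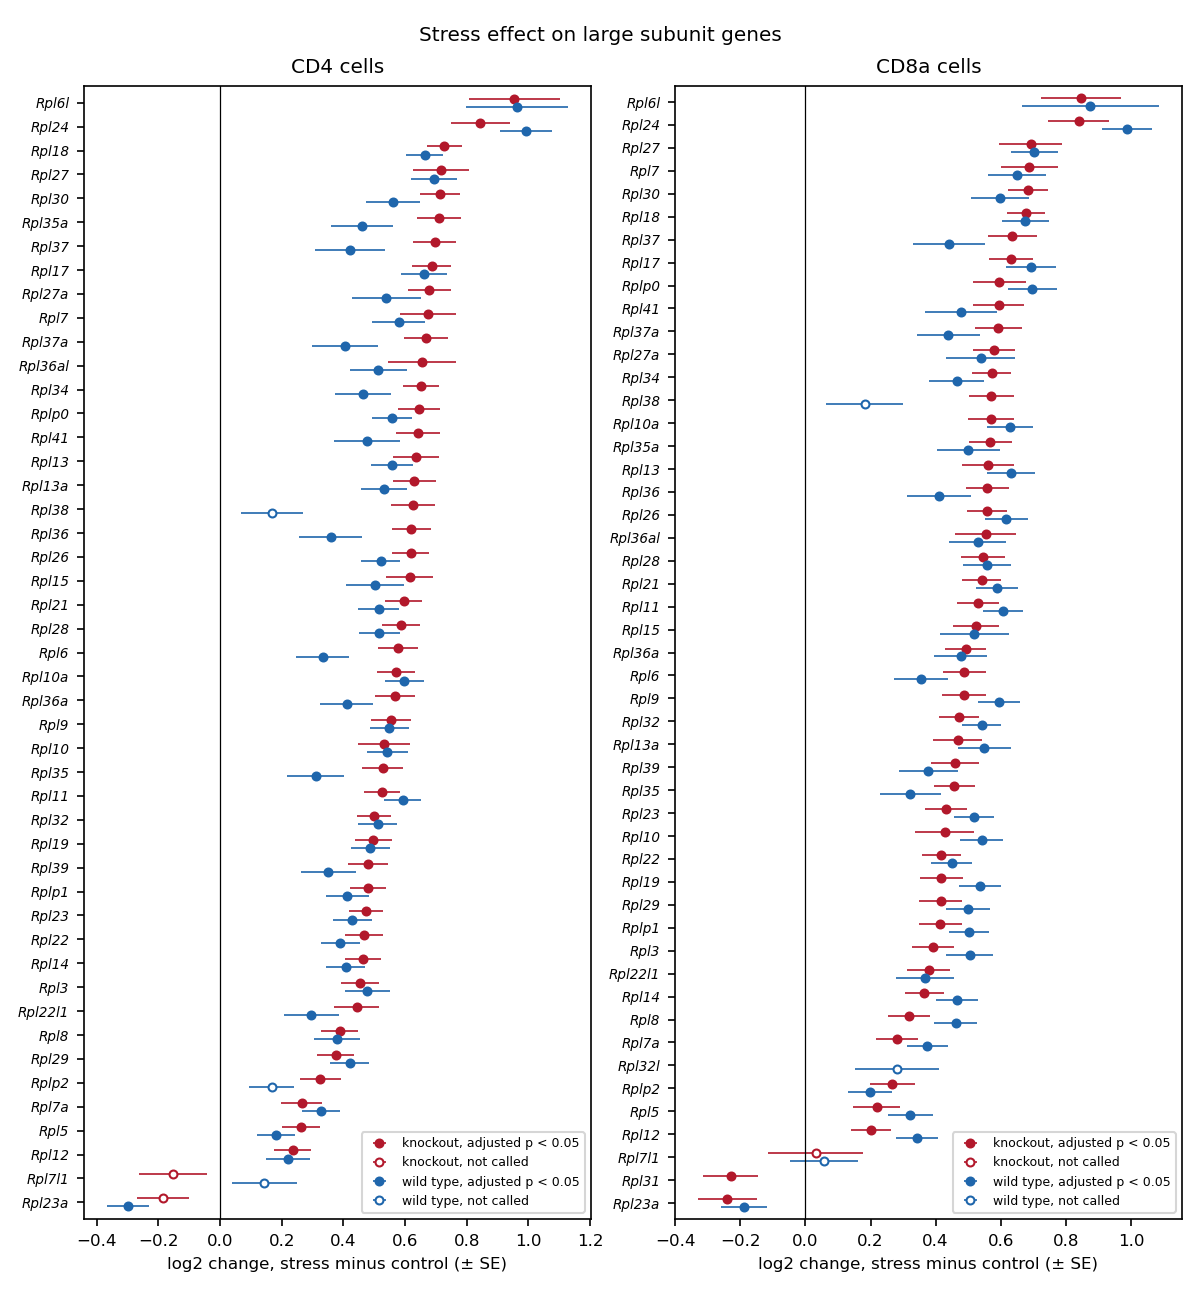
Log2 stress effect (stressed minus unstressed, ± SE from limma) of the listed members but 1 in knockout and wild-type mice. Filled points passed an adjusted p of 0.05 and open points did not. Nearly all members lie right of 0, Rpl6l and Rpl24 farthest, and Rpl23a lies left of 0 in both cell types.

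Rpl24 showed the largest rise of any protein-coding member. It forms a bridge to the small subunit and, in yeast, joins the particle late, in the cytoplasm. Its gene is at chr16:55966275-55971435, plus strand (GENCODE M21, GRCm38, the assembly of mm10). CD4 cells had 5.91, 5.82 and 6.07 units in stressed knockouts, against 3.25, 3.82 and 2.80 in unstressed knockouts. Wild-type CD4 cells had 6.98, 5.92 and 5.60 units after stress and 3.02, 3.00 and 3.09 without it. Stressed and unstressed mice were fully separated. The log2 change was 0.84 ± 0.10 in knockout and 0.99 ± 0.08 in wild-type CD4 cells (SE, n = 3 per group, limma adjusted p = 4.89e-06 and 4.09e-06), and 0.84 ± 0.09 and 0.99 ± 0.08 in CD8a cells (adjusted p = 3.9e-06 and 1.76e-06). Only 23.2% of the windows at its 3' end were unique in the transcriptome. The pseudogene Rpl6l also rose, from a far lower level, with none of its 3' windows unique. It had 0.430, 0.381 and 0.275 units in stressed against 0.156, 0.108 and 0.147 in unstressed knockout CD4 cells (0.95 ± 0.15 log2, limma adjusted p = 7.04e-05). The log2 change of so low a gene is understated by the 0.1 added before the log. The ratio of stressed to unstressed group means in these cells was 2.64 for Rpl6l and 1.80 for Rpl24. Among the next largest changes were Rpl18 (0.73 ± 0.06 in knockout and 0.66 ± 0.06 in wild-type CD4 cells) and Rpl27 (0.72 ± 0.09 and 0.69 ± 0.07), both structural proteins of the subunit. All 4 effects passed the test.

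The stalk is made of Rplp0, which anchors it to the ribosomal RNA, and of dimers of Rplp1 and Rplp2, which bind elongation factors. Rplp0 had 44.1, 43.7 and 40.3 units in stressed knockout CD4 cells, against 29.0, 25.1 and 27.9 in unstressed ones (0.64 ± 0.07 log2, limma adjusted p = 2.98e-06). Rplp2 had 44.7, 44.5 and 44.3 units in stressed knockout CD4 cells, against 32.3, 38.6 and 36.0 in unstressed ones, a smaller change of 0.32 ± 0.07 (limma adjusted p = 0.000901). In wild-type CD4 cells Rplp2 had 46.7, 49.7 and 46.1 units after stress and 38.8, 42.2 and 46.2 without it. Those groups overlapped and the change of 0.17 ± 0.07 did not pass (limma adjusted p = 0.0681), although it passed with control mouse 3 of the wild type left out (0.23). The ratio of Rplp2 to Rplp1 in each mouse was 0.4999 ± 0.0125 in stressed and 0.556 ± 0.0211 in unstressed knockout CD4 cells, and 0.513 ± 0.0110 in stressed and 0.608 ± 0.0266 in unstressed wild-type CD4 cells. In CD8a cells it was 0.477 ± 0.00650 in stressed and 0.529 ± 0.0330 in unstressed knockouts, and 0.477 ± 0.0160 in stressed and 0.590 ± 0.0330 in unstressed wild types (SD, n = 3 each). In all 4 pairs the highest stressed mouse lay below the lowest unstressed mouse.

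Rpl5 and Rpl11 form with 5S ribosomal RNA a particle that, outside the ribosome, binds Mdm2 and stabilises p53. Both rose in every stress comparison. Rpl11 had 35.7, 35.8 and 33.8 units in stressed against 24.9, 24.5 and 23.7 units in unstressed knockout CD4 cells (0.53 ± 0.06 log2, limma adjusted p = 3.9e-06). Rpl5 had 22.4, 20.4 and 20.7 units in stressed against 17.1, 18.3 and 17.5 units in unstressed knockout CD4 cells (0.26 ± 0.06, limma adjusted p = 0.00295). Both pairs were separated. In wild-type CD4 cells the changes were 0.59 ± 0.06 for Rpl11 and 0.18 ± 0.06 for Rpl5, and in wild-type CD8a cells 0.61 ± 0.06 and 0.32 ± 0.07, all past the test. Rpl12, the abundant protein at the stalk base, rose by 0.24 ± 0.06 in knockout and 0.22 ± 0.07 in wild-type CD4 cells (limma adjusted p = 0.00449 and 0.0172).

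Proteins at the rim of the exit tunnel, where nascent chains leave and targeting factors dock, included the members that fell. Of 8 rim genes, 6 of 7 listed rose in knockout CD4 cells and 5 of 7 in wild-type CD4 cells. Among all members 46 of 48 and 44 of 48 rose there, and among all listed genes 19.5% and 31.0%. Rpl17 and Rpl26 were among the risers (0.69 ± 0.06 and 0.62 ± 0.06 log2 in knockout CD4 cells). Rpl23a, the docking site of the signal recognition particle, went the other way. Wild-type CD4 cells had 9.93, 10.3 and 10.4 units of Rpl23a after stress and 12.5, 11.8 and 13.5 without it, without overlap (-0.30 ± 0.07 log2, limma adjusted p = 0.00194). Knockout CD4 cells had 10.98, 10.4 and 11.1 units after stress and 11.1, 14.4 and 11.8 without it, where unstressed mouse 1 lay within the stressed range and the change of -0.19 ± 0.08 did not pass (limma adjusted p = 0.1), although it passed without that mouse (-0.26). In CD8a cells the change was -0.24 ± 0.09 in knockouts and -0.19 ± 0.07 in wild types (limma adjusted p = 0.0456 and 0.0307). The wild-type CD8a value was lost without unstressed mouse 3 (-0.13) or stressed mouse 2 (-0.16) and turned to 0.01 when mice were centred on their median gene. The knockout CD8a value no longer passed with any stressed mouse left out (-0.21 to -0.28) or without unstressed mouse 2 (-0.11). At the 3' end of Rpl23a 25.1% of windows were unique.

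Rpl31, also at the rim, was the other member that fell. It lies at chr1:39367842-39371911 on the plus strand, and its 3' end is wholly unique. CD8a cells had 8.71, 8.54 and 8.26 units in stressed knockouts, against 9.79, 11.6 and 8.78 in unstressed knockouts. The groups lay apart by a narrow gap, and the change was -0.23 ± 0.08 log2 (limma adjusted p = 0.0421). It no longer passed without stressed mouse 2 or 3 (-0.23 and -0.21) or unstressed mouse 1 or 2 (-0.24 and -0.12). The authors did not list Rpl31 for the other stress comparisons. In a fit over every gene listed for the cell type it was -0.10 ± 0.09 in knockout and -0.22 ± 0.09 in wild-type CD4 cells, with limma adjusted p = 0.429 and 0.0756, and -0.16 ± 0.08 in wild-type CD8a cells (adjusted p = 0.12).

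Rpl38, a surface protein whose loss in the Ts mouse alters the axial skeleton through translation of Hox messenger RNAs, rose in knockouts and did not pass the test in wild types. CD4 cells had 16.8, 16.96 and 15.5 units in stressed knockouts, against 10.9, 9.69 and 11.2 in unstressed knockouts, with no overlap (0.63 ± 0.07 log2, limma adjusted p = 4.95e-06). In wild-type CD4 cells it had 21.2, 20.1 and 16.9 units after stress and 15.2, 16.9 and 19.7 without it, and those groups overlapped (0.17 ± 0.10, limma adjusted p = 0.166). It passed there without stressed mouse 3 (0.26) or unstressed mouse 3 (0.27). Wild-type CD8a cells overlapped too, with 0.18 ± 0.12 log2 (limma adjusted p = 0.184), and passed without stressed mouse 3 (0.30). The difference between genotypes was tested by the interaction over all 12 mice, knockout minus wild type. It was 0.46 ± 0.14 log2 for Rpl38 in CD4 and 0.39 ± 0.15 in CD8a cells (limma adjusted p = 0.388 and 0.652). The test called 0 members and 0 genes in all (0% of 2999 in CD4 and of 2851 in CD8a cells), and 2 of 49 members in CD4 and 1 of 50 in CD8a cells had an unadjusted p under 0.05. The second in CD4 cells was Rpl6 (0.24 ± 0.11 log2).

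**Figure D3:**
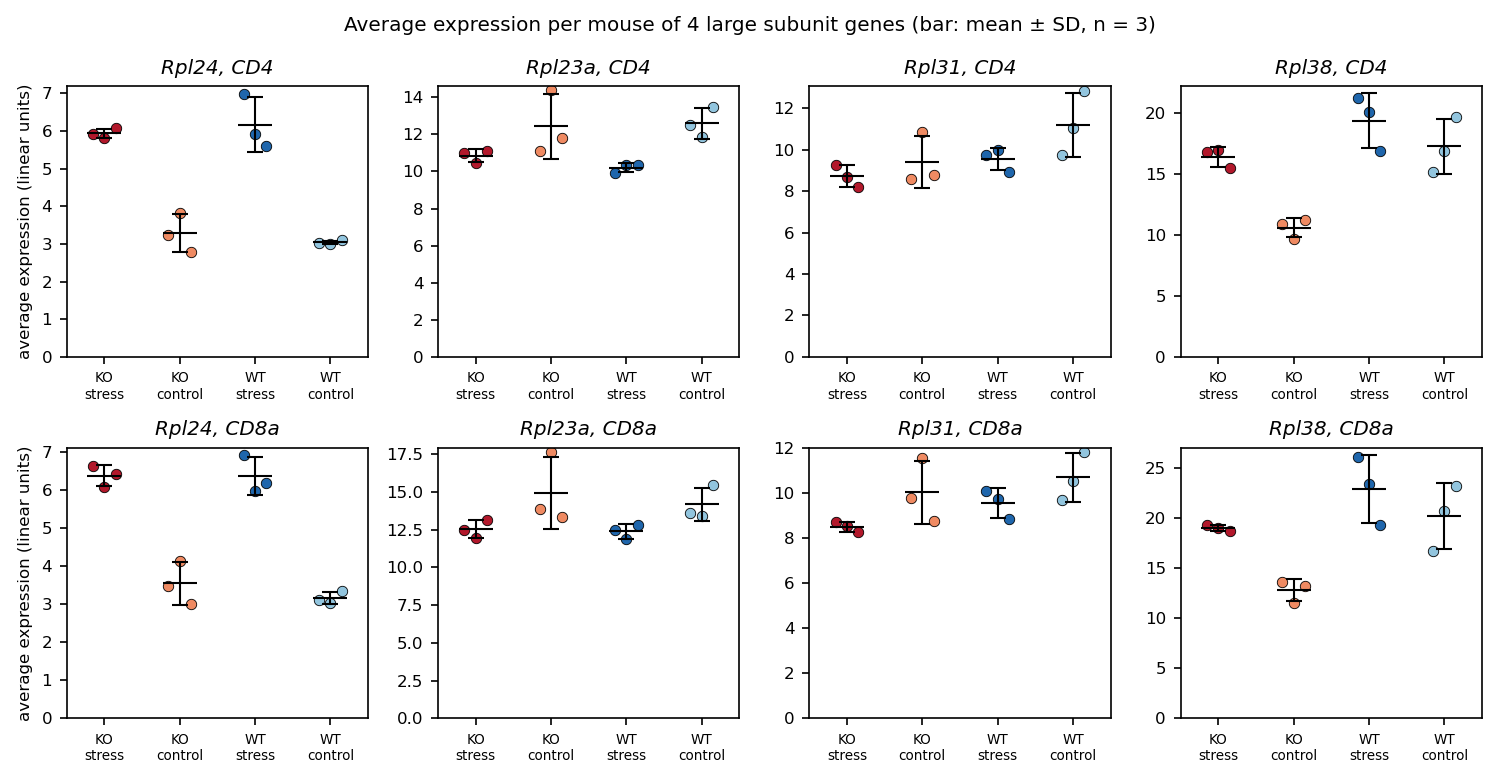
Average expression per mouse of Rpl24, Rpl23a, Rpl31 and Rpl38 in CD4 (top) and CD8a cells (bottom), in the authors' linear units, with the mean ± SD over 3 mice. Over both cell types Rpl24 lies at 5.60 to 6.98 units in stressed and 2.80 to 4.15 units in unstressed mice, the group means of Rpl23a are lower after stress, and Rpl38 in unstressed knockouts lies below all other groups.

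Paralogs did not all move with the gene they resemble. Rpl22 binds RNA, and mice without it fail to make most alpha-beta T cells; Rpl22l1 can stand in for it in the ribosome. Rpl22l1 had 8.49, 7.30 and 7.59 units in stressed and 5.56, 5.62 and 5.90 in unstressed knockout CD4 cells (0.44 ± 0.07 log2, limma adjusted p = 0.000119), and Rpl22 rose by 0.47 ± 0.06. The Rpl22l1 to Rpl22 ratio was 0.348 ± 0.0254 in stressed and 0.353 ± 0.0226 in unstressed knockout CD4 cells, a difference smaller than the spread. Rpl36al, a near copy of Rpl36a, rose by 0.66 ± 0.11 in knockout and 0.51 ± 0.09 in wild-type CD4 cells. Rpl7l1 behaved otherwise. It had 0.576, 0.558 and 0.545 units in stressed knockout CD4 cells, against 0.702, 0.580 and 0.624 in unstressed ones (-0.15 ± 0.11, limma adjusted p = 0.294), and it passed in none of the 4 stress comparisons (-0.15 to 0.14). Its ratio to Rpl7 was 0.0404 ± 0.00301 in stressed and 0.0733 ± 0.00549 in unstressed knockout CD4 cells, and 0.0386 ± 0.00290 in stressed and 0.0514 ± 0.00288 in unstressed wild-type CD4 cells, with no overlap. Rpl32l, listed in CD8a cells of wild types, had 0.0361, 0.0387 and 0.0443 units after stress and 0.00225, 0.0153 and 0.0286 without it (0.28 ± 0.13, limma adjusted p = 0.0687).

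How far each member departed from the group was tested after the member average of a mouse was taken off, over both genotypes together. In CD4 cells 11 of 49 members rose more than the average and 8 rose less or fell, where 1.50% and 82.6% of all 2999 genes lay above and below it. CD8a cells had 13 above and 9 below of 50 (1.82% and 86.0% of 2851 genes). The large shares below follow from taking off an average that rises, and are no background for the members. With so many genes called, the adjustment hardly acted on the members. An unadjusted p under 0.05 was reached by 20 members in CD4 and 22 in CD8a cells. Rpl23a was farthest below (-0.72 ± 0.06 log2 in CD4 and -0.68 ± 0.06 in CD8a cells, limma adjusted p = 6.2e-09 and 3.27e-09). Rpl31 followed at -0.64 ± 0.06 and -0.66 ± 0.05. Also below in both cell types were Rpl7l1, Rpl5, Rpl12, Rplp2 and Rpl7a, from -0.48 to -0.14. These are departures from a rising average: Rpl5, Rpl12 and Rpl7a rose in every stress comparison. Rpl32l was called below in CD8a cells (-0.27 ± 0.09), but its average of 0.0208 units lies under the pseudocount of 0.1. With a pseudocount of 0.01 it stood above the member average. Its ratio of stressed to unstressed group means was 2.58 in wild-type and 1.88 in knockout CD8a cells. Rpl24 was above the member average (0.44 ± 0.07 in CD4 and 0.45 ± 0.06 in CD8a cells). So were Rpl27, Rpl18, Rpl17, Rpl7, Rpl30, Rplp0, Rpl13, Rpl10a and Rpl26 (0.09 to 0.23 in both), and Rpl21 and Rpl11 in CD8a cells. Rpl6l was above it too (0.48 ± 0.11 and 0.40 ± 0.12), but with a pseudocount of 1 in place of 0.1 it stood at -0.16 in both cell types.

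Without stress, several members were lower in mice labelled knockout, most of them genes of short proteins. The authors listed 29 members for CD4 cells in this comparison. Of these 11 were called lower and 0 higher, where 6.65% of 496 listed genes were called lower and 15.1% higher. The 11 were Rpl38, Rpl35, Rpl36, Rpl37, Rpl37a, Rpl35a, Rpl39, Rpl34, Rpl36a, Rpl6 and Rpl26. The median of the 29 was -0.25 log2, against 0.20 over all listed genes. These 29 were listed by the authors on the same mice, so their median describes a chosen set. Over all 49 members, in the fit on every gene listed for CD4 cells, it was -0.12 log2, against 0.07 over the 2999 genes. Rpl38 differed most, with 10.9, 9.69 and 11.2 units in unstressed knockouts against 15.2, 16.9 and 19.7 in unstressed wild types, without overlap (-0.69 ± 0.10). Rpl35, at the tunnel rim, had 10.0, 9.22 and 10.2 units in unstressed knockouts against 12.9, 13.9 and 15.3 in unstressed wild types (-0.51 ± 0.08), again apart. In CD8a cells 2 of 25 listed members were called lower, Rpl38 (-0.64 ± 0.13) and Rpl35 (-0.39 ± 0.07), where 4.29% of 303 genes were called lower and 3.96% higher. The CD4 count rests on few mice: it was 0 without knockout mouse 1 or 2, 15 without knockout mouse 3, 0 without wild-type mouse 2 and 1 without wild-type mouse 3. The CD8a count was 0 without knockout mouse 2 or 3 or wild-type mouse 2 or 3, and 10 without wild-type mouse 1. Adjusted over every gene listed for the cell type, Rpl38 and Rpl35 passed in both cell types. Centring each mouse on its median gene called 26 members lower in CD4 and 20 in CD8a cells, with all calls at 25 higher and 109 lower in CD4 (uncentred 75 and 33) and 7 and 119 in CD8a cells (uncentred 12 and 13).

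Under stress the called members were again lower in mice labelled knockout. Of 19 members listed for CD4 cells, 5 were called lower in stressed knockouts than in stressed wild types (Rpl39, Rpl36, Rpl37, Rpl37a and Rpl32), where 18.4% of 87 listed genes were called lower and 14.9% higher. Rpl39, a very short protein that lines the exit tunnel, had 37.0, 36.9 and 36.6 units in stressed knockout against 47.0, 46.0 and 40.4 in stressed wild-type CD4 cells (-0.27 ± 0.06 log2), without overlap. In CD8a cells 12 of 20 listed members were called lower and 0 higher, where 34.3% of 99 genes were called lower and 27.3% higher. They were Rpl36, Rpl39, Rpl37, Rpl37a, Rpl36a, Rpl34, Rpl35a, Rpl22, Rplp1, Rplp2, Rpl32 and Rpl23, from -0.26 to -0.10. The CD4 count was 0 without any one of the 3 knockouts or of wild-type mice 1 and 2, and 16 without wild-type mouse 3. The CD8a count was 1, 4 and 0 without knockout mouse 1, 2 or 3, and 3 and 18 without wild-type mouse 2 or 3. Adjusted over every gene listed for the cell type, or centred on the median gene, 0 members passed in either cell type, and centring put all calls at 5 higher and 2 lower in CD4 (uncentred 13 and 16) and 9 and 2 in CD8a cells (uncentred 27 and 34). These 4 genotype comparisons use the same mice as the stress comparisons.

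Protein length was set against the genotype difference for all 48 protein-coding members, listed or not, in the fit over every gene of the cell type. Across genes, the knockout minus wild-type difference was less negative at greater coding length without stress, with Spearman's rho 0.59 and Pearson's r 0.51 in CD4 and 0.57 and 0.53 in CD8a cells. Under stress rho was 0.48 in CD4 and 0.55 in CD8a cells. For the stress effect rho ran from -0.25 to 0.25. The 48 genes share mice, libraries and scaling and are no independent replicates. The 16 members with the shortest proteins had a median of -0.35 log2 in unstressed CD4 cells, against -0.06 for the 18 with the longest (over 180 residues). All 16 short and 17 of the 18 long ones lay below 0 there, so in CD4 cells the classes differed in size and hardly in sign. In unstressed CD8a cells the medians were -0.28 log2 for the short and 0.0005 for the long ones. There 14 of 16 short but only 9 of 18 long ones lay below 0. The median coefficient of variation among mice was larger for the short than for the long genes in 5 of the 8 groups. In unstressed wild-type CD4 cells it was 11.8% for the short and 4.02% for the long ones, and mouse 3 was the highest of its group in 37 of 49 members. In stressed knockouts the short genes had the smaller value, 2.99% against 4.53% in CD4 and 1.93% against 3.57% in CD8a cells, and in stressed wild-type CD8a cells it was 8.02% against 8.05%. GC content showed rho of 0.07 or less in unstressed mice.

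**Figure D4:**
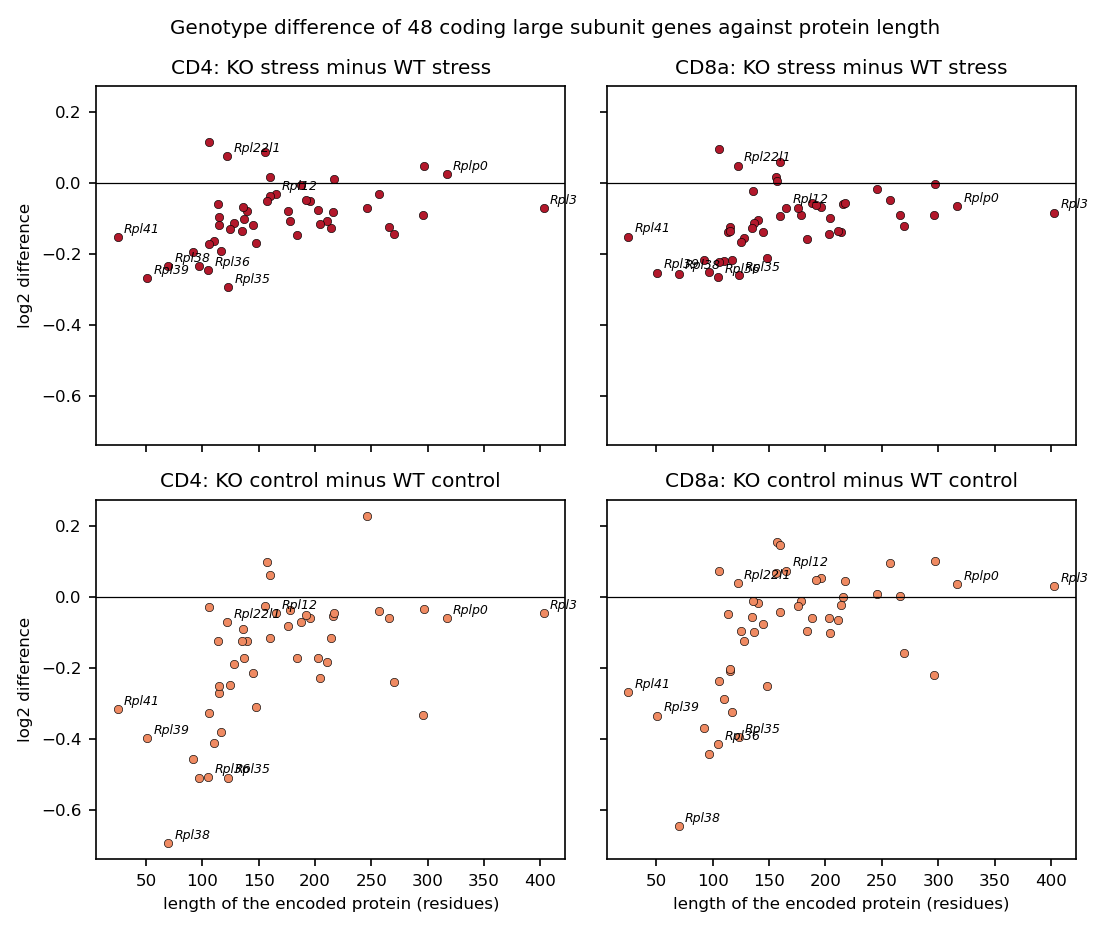
Log2 difference between mice labelled knockout and wild type of the 48 protein-coding members (fit over every gene listed for the cell type) against the length of the encoded protein in residues. Upper panels compare stressed and lower panels unstressed mice. Most of the lowest points are short proteins, with Rpl38 at -0.69 in unstressed CD4 cells, and most long proteins lie near 0.

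CD8a cells carried more of the members than CD4 cells of the same mouse. By limma on the CD8a minus CD4 difference of the 12 mice, 44 of 49 members were higher in CD8a cells and 0 lower, where 17.4% of 2166 genes listed in both were called higher and 35.3% lower. The median difference was 0.18 log2 for members and -0.06 for all genes, and 38 of 49 members were higher in CD8a cells in 12 of 12 mice. Rpl32 differed most, with a mean of 69.7 units in CD8a against 55.7 in CD4 cells (0.32 ± 0.01 log2), and then Rplp1 with 97.6 against 78.8 units (0.31 ± 0.02). The 5 not called were Rpl7l1 (-0.08 ± 0.05), Rpl36al (-0.02 ± 0.03), Rpl31 (-0.00 ± 0.02), Rpl13a (0.04 ± 0.02) and Rpl6l (0.13 ± 0.06). The effect of stress on the CD8a minus CD4 difference was called for 0 members (0 higher and 1 lower, 0.0462%, of 2166 genes), and 0 members had an unadjusted p under 0.05.

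Lists of genes that work with the large subunit were counted in CD4 cells against the 19.5% higher and 20.0% lower of all listed genes in knockouts and the 31.0% higher and 28.9% lower in wild types. Small subunit genes rose in 28 of 31 listed cases in knockouts, with a median of 0.50 log2, and 0 fell, Rps7 (0.74 ± 0.06) and Rps15a (0.71 ± 0.07) having the smallest p. In wild types 28 of 32 rose, with a median of 0.42 log2, led by Rps7 (0.69 ± 0.07) and Rps10 (0.67 ± 0.07), and 2 fell. Annotated pseudogenes and retrogenes of large subunit genes, whose reads can be shared with the parents, rose in 12 of 18 cases in knockouts (Rpl9-ps6 and Rpl3-ps1, both by 0.73 ± 0.10) and 13 of 13 in wild types (Rpl19-ps11 by 0.81 ± 0.11 and Rpl3-ps1 by 0.71 ± 0.12).

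Factors that assemble and export the large subunit were called in 0 of 9 listed cases in knockouts, where Eif6 (0.23 ± 0.10 log2) and Nop53 (0.19 ± 0.10) had the smallest p. In wild types 3 of 11 were called higher, a share near that of all genes, with Rsl24d1 at 0.33 ± 0.11, and 1 fell, Mdn1 (-0.83 ± 0.11), the ATPase that strips assembly factors from the particle. Their summed level was 12.1 to 12.7 units in stressed and 12.1 to 12.8 in unstressed knockout CD4 cells, fully overlapping. Of 10 nucleolar proteins listed in knockouts Nop10 rose (0.25 ± 0.08) and Ncl, the nucleolin gene, fell (-0.43 ± 0.07). In wild types 0 of 7 were called, with Nhp2 at 0.30 ± 0.13 and Nop10 at 0.17 ± 0.09. Subunits of RNA polymerase I, which transcribes the large ribosomal RNAs, rose in 1 of 7 cases in knockouts, near the share of all genes (Polr1d by 0.37 ± 0.10, while Polr2f at 0.29 ± 0.12 did not pass), and in 4 of 6 in wild types, with Polr1d at 0.53 ± 0.10 and Polr1h at 0.40 ± 0.11.

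The list of elongation factors also held Tpt1, which is not itself one. Its genes rose in 5 of 9 cases in knockouts, with Eef1b2 at 0.37 ± 0.07 log2 and Tpt1 at 0.30 ± 0.06. Eef2, which moves the ribosome along the messenger, fell (-0.20 ± 0.06). In wild types 4 of 7 rose, with Eef1b2 at 0.39 ± 0.07 and Eef1d at 0.42 ± 0.08. Of 19 initiation factors in knockouts 8 were higher and 3 lower, Eif3a (-0.67 ± 0.08), Pabpc1, the poly(A) binding protein (-0.48 ± 0.07), and Eif4g2 (-0.43 ± 0.08). Of 20 in wild types 10 were higher and 3 lower, Pabpc1 (-0.53 ± 0.07), Eif4g2 (-0.57 ± 0.08) and Eif4g3 (-0.87 ± 0.14), and the lower shares were below those of all genes. Chaperones and other factors that meet nascent chains at the tunnel rose in 5 of 9 cases in knockouts, with Naca at 0.46 ± 0.07 and Hspa8 at 0.53 ± 0.11, and in 4 of 9 in wild types, with Btf3 at 0.57 ± 0.06 and Naca at 0.52 ± 0.06. Few regulators of ribosomal protein genes and of mTORC1 were listed. In knockouts 1 of 3 was lower, Sesn3, an inhibitor of mTORC1 (-0.73 ± 0.09), and Rheb was at 0.16 ± 0.105. In wild types 3 of 4 were lower, Sesn3 (-0.83 ± 0.08), Sp1 (-0.95 ± 0.10) and Rps6kb1 (-0.81 ± 0.10).

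Markers of T cells and of other cells also differed with stress, in either direction. Cd4 was at 1.86 to 2.47 units in stressed and 2.59 to 2.72 in unstressed knockout CD4 cells, and at 1.66 to 1.85 in stressed and 2.58 to 3.01 in unstressed wild types. Cd8a in CD8a cells was at 3.38 to 3.79 units in stressed and 4.35 to 5.27 in unstressed knockouts, and at 3.75 to 4.16 in stressed and 4.45 to 4.86 in unstressed wild types. Cd3d, a subunit of the T cell receptor complex, went the other way. It was at 9.57 to 10.2 units in stressed and 7.25 to 8.83 in unstressed knockout CD4 cells, and at 9.47 to 10.7 in stressed and 7.50 to 7.97 in unstressed wild types. CD8a cells had 9.89 to 10.6 units of Cd3d in stressed and 7.77 to 8.64 in unstressed knockouts, and 9.95 to 10.7 in stressed and 7.77 to 8.24 in unstressed wild types. Cd3g was at 9.68 to 11.02 units in stressed and 7.54 to 8.36 in unstressed wild-type CD4 cells, and overlapped in knockouts. The listed T cell markers summed to 50.8 to 55.2 units in stressed and 44.4 to 51.0 in unstressed knockout CD4 cells, and to 49.5 to 55.3 in stressed and 45.0 to 45.9 in unstressed wild types. In CD8a cells their sum was 48.3 to 52.8 in the 6 stressed and 48.4 to 54.6 in the 6 unstressed mice, overlapping.

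Malat1, a nuclear RNA, was at 150 to 161 units in stressed and 212 to 218 units in unstressed knockout CD4 cells, and at 149 to 163 in stressed and 219 to 237 in unstressed wild types. The 12 listed mitochondrially encoded genes summed to 410 to 430 units in stressed and 467 to 515 in unstressed knockout CD4 cells, to 383 to 462 in stressed and 478 to 536 in unstressed wild-type CD4 cells, and over both genotypes to 359 to 403 in the 6 stressed and 447 to 518 in the 6 unstressed mice in CD8a cells. Of 8 natural killer markers 5 were listed in CD4 cells, and their sum was 14.2 to 40.8 units in stressed and 4.42 to 7.91 in unstressed knockouts, and 9.29 to 28.5 in stressed and 2.98 to 4.82 in unstressed wild types. In CD8a cells 3 were listed, at 24.9 to 46.7 units in the 6 stressed and 13.6 to 22.0 in the 6 unstressed mice.

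B cell and class II markers, 7 of 13 listed in CD4 cells, were at 3.42 to 4.11 units in stressed and 7.51 to 11.2 in unstressed knockouts. In wild-type CD4 cells they overlapped, at 4.32 to 7.08 units in stressed and 3.44 to 8.95 in unstressed mice. In CD8a cells 8 were listed, at 4.60 to 6.91 units in the 6 stressed and 7.0005 to 13.7 in the 6 unstressed mice. Neutrophil markers, 5 of 9 listed in CD4 cells, summed to 0.907 to 1.49 units in stressed and 0.458 to 1.10 in unstressed knockouts, and to 0.406 to 1.06 in stressed and 0.113 to 0.294 in unstressed wild types. In CD8a cells 6 were listed, at 4.78 to 7.76 units in stressed and 4.34 to 5.74 in unstressed knockouts, and at 4.81 to 5.25 in stressed and 3.04 to 3.96 in unstressed wild types. S100a8 and S100a9 were at most 0.127 and 0.0889 units in CD8a cells, so nearly all of that sum came from other genes. The sums of the 2 cell types are over unlike sets of genes and their levels cannot be compared. Monocyte and dendritic markers were at 2.33 to 3.22 units in the 6 stressed and 1.48 to 3.78 in the 6 unstressed mice in CD4 cells, and at 2.01 to 2.50 and 1.39 to 2.83 in CD8a cells. The sum of erythroid markers, 4 of 6 listed, was 1.70 to 5.08 units in stressed and 0.627 to 5.52 in unstressed knockout CD4 cells, and 0.197 to 2.36 in stressed and 0.0891 to 0.141 in unstressed wild types. In CD8a cells it was 1.39 to 15.9 units in stressed and 0.351 to 2.77 in unstressed knockouts, and 0.228 to 0.688 in stressed and 0.0342 to 0.850 in unstressed wild types. The part of these transcripts in the member results was not tested.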

How the data were processed

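The deposited values are a signal, the authors' average expression of each gene over the CD4 or CD8a cells of 1 mouse; the labels name single-cell 3' libraries, and the submitters' processing notes name Cell Ranger 2.1.1 and mm10. How cells were assigned, how averages were scaled and how the listed genes were chosen is not given in the sources used here. Counts were not analysed here, so the depth is unknown and no counting interval is given. Values repeated between tables of a cell type (3577) were identical in all cases, and 0 value columns were unused.

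Values were taken as log2(value + 0.1), so fold changes of low genes are understated. Each comparison was fitted with limma 3.58.1 (R 4.3.3, mean-variance trend) on the genes the authors listed for it, with Benjamini-Hochberg adjustment over those genes and a threshold of 0.05. Stress and genotype comparisons used 3 mice per group, for which an exact permutation test cannot go below p = 0.1. Interactions and departures from the member average used the 12 mice of a cell type, and CD8a was set against CD4 within each mouse. P-values measure the spread between mice. Mouse numbers name different animals and pair nothing across groups. The models were tested on simulated data. Positions and lengths are from GENCODE M21 and promoters from RefSeq GRCm38.p6. Tables were handled with Python 3.11.15, pandas 2.3.3 and numpy 2.4.6, and figures with matplotlib 3.10.9.

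Named were the members with the 3 highest and 3 lowest levels, the 3 largest and 3 smallest changes, every member that fell or was not called under stress, every member called by genotype, the stalk, 5S particle and paralog members, and, in each CD4 stress comparison, the 2 genes of smallest p per list of partner genes; Rpl24, Rpl23a, Rpl31 and Rpl38 were drawn, and most partner genes that fell were added, after their values were seen. Values of 1 member are not reported here by name, though it is part of counts, sums and medians. The members and lists were chosen with earlier results of these data known. Alternatives covered the pseudocount, a filter on low values, scaling, the trend, sample weights, a replicate block, the mice in the fit, the genes tested and leaving out each mouse.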

Additional observations from a re-analysis of the deposited data

How the results depend on the processing

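The stress counts of members called higher stayed within 41 to 46 in wild-type CD4, 45 to 46 in knockout CD4, and 44 to 46 in both genotypes of CD8a cells when 1 mouse was left out, and the CD8a minus CD4 count within 42 to 45. Of the single-gene values under the other alternatives 1671 kept direction and side of the threshold, 147 lost and 60 gained the call and 21 turned direction; without 1 mouse these were 2008, 212, 26 and 16. The cause was not tested for any change below.

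Counts of members called lower were less stable. In unstressed knockout CD4 cells (11) they were 2 with a pseudocount of 1, without the lowest 25% of genes and with every gene listed, 3 with no trend, 17 with sample weights, 18 with 4 groups in 1 fit, 26 when centred on the median gene, and 0 to 15 without 1 mouse. In stressed knockout CD4 cells (5) they were 0 centred and with every gene, 1 with no trend, 3 with 4 groups, 16 with weights and 0 to 16 without 1 mouse. In unstressed knockout CD8a cells (2) they were 20 centred, 5 with weights, 10 with 4 groups and 0 to 10 without 1 mouse. In stressed knockout CD8a cells (12) they were 0 centred and with every gene, 7 with no trend, 6 with 4 groups and 0 to 18 without 1 mouse. Members that fell with stress numbered 1 with weights in knockout CD4 cells (0 to 1 without 1 mouse), 0 centred, scaled on other genes, with no trend or with 4 groups in wild-type CD8a cells (0 to 1), and in knockout CD8a cells 1 with a pseudocount of 1 and 0 centred, scaled or with no trend (0 to 2). Members above their average numbered 7 at a pseudocount of 0.01 and 6 with no trend or on the median of members in CD4 cells (6 to 12), and 8 with no trend in CD8a cells.

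With the mouse number as a replicate block, 19 members were lower in unstressed knockout CD4 cells, 0 in unstressed knockout CD8a cells, and 0 fell in stressed wild-type CD8a cells; same-numbered mice did not deviate together (correlations of -0.24 to 0.24), so they share only a number. The block turned Rpl31 to 0.0341 in the CD8a minus CD4 difference.

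Directions turned under centring for Rpl11 (0.0289), Rpl22 (0.0220), Rpl23 (0.0561), Rpl7a (0.0099) and Rplp2 (0.0401) in stressed knockout CD4 cells, for Rpl24 (-0.0457), Rpl29 (-0.0529), Rpl5 (-0.0986) and Rpl8 (-0.104) in unstressed knockout CD8a cells, and for Rpl23a (0.0075) under stress in wild-type CD8a cells. Relative to the member average a pseudocount of 1 turned Rpl23 (0.0089), Rpl36al (-0.0354), Rpl6l (-0.162) and Rplp1 (0.0058) in CD4 and Rpl36al (-0.0561), Rpl6l (-0.163) and Rplp1 (0.0292) in CD8a cells, a pseudocount of 0.01 turned Rpl32l (0.317), and the median of members turned Rpl36a (-0.0196) in CD4 cells. Without 1 mouse, values crossed 0 for Rpl9 in unstressed knockout CD4 cells (-0.0792 to 0.0011), Rpl36a relative to the average (-0.0124 to 0.0328 in CD4 and -0.0034 to 0.0324 in CD8a cells), Rplp1 likewise in CD8a cells (-0.0260 to 0.0155), Rpl7l1 under stress in knockout CD8a cells (-0.1018 to 0.2211) and for stress on the CD8a minus CD4 difference (-0.0084 to 0.1362), and Rpl31 in CD8a minus CD4 (-0.0135 to 0.0101).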
